A study of Rattus norvegicus with 244 samples.

Results

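The genes for subunits of the ionotropic and metabotropic glutamate receptors and of the GABA and glycine receptors were examined in 2 regions of the rat brain after spinal cord injury. A gene was a member if a probe set of the arrays was annotated with 1 symbol beginning with Gria, Grik, Grin, Grid or Grm and a number, or with Gabr, Gabbr, Glra or Glrb. This gave 43 genes of the 10969 genes with a single symbol, carried by 79 of 26202 probe sets: 4 AMPA, 5 kainate, 6 NMDA, 1 delta and 7 metabotropic glutamate receptor genes, 15 GABA-A, 2 GABA-B and 3 glycine receptor genes. Each gene was read from its probe set of highest mean signal, which lay on array type A for 41 genes and on type C for Gabbr1 and Grik1.

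Glutamate opens AMPA, kainate and NMDA receptor channels, which depolarize a neuron, and also acts through the slower, G protein-coupled metabotropic receptors. GABA and glycine open chloride channels that usually inhibit a neuron, and GABA-B receptors act through G proteins. Glycine carries much of the fast inhibition in the brainstem and spinal cord, whereas GABA does so in the cortex.

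RNA came from the raphe, a brainstem region with serotonin neurons that project to the spinal cord, and from the somatomotor cortex, the source of the corticospinal tract. The 84 samples (41 of raphe, 43 of cortex) were measured on 244 arrays of 3 types. Each region had 4 naive samples without an operation, 24 samples after moderate spinal cord injury and 12 after laminectomy alone, called sham here, which removes the bone over the cord. Injured samples (4 per time) and sham samples (2 per time) were taken after 4 and 24 h, after 7, 14 and 28 d and after 3 months. Type A, which carries nearly all members, had 1 raphe sham sample at 3 months, hence 11 in all, and type C had 3 naive raphe samples. Further sham samples (1 raphe and 2 cortex at 30 min, 1 cortex at 72 h) had no injured counterpart and entered only the estimate of the spread. Strain, sex, age and injury level are not given in the labels. Sham and naive raphe are labelled raphe magno and injured raphe only raphe, so a difference in dissection and an effect of injury cannot be told apart there. Whether each sample was its own animal is not stated, so p-values measure only the spread between these samples, which may be technical.

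Of 9 tested serotonin neuron genes, 4 were called higher and 0 lower in naive raphe than in naive cortex. The serotonin transporter gene Slc6a4 read 891 to 1374 in 4 naive raphe samples and 474 to 624 in 4 naive cortex samples, and the serotonin neuron factor Fev read 752 to 1192 and 498 to 721. Slc18a2, of the same list, read 105 to 274 in raphe and 23.1 to 214 in cortex, with overlap. Tph1 stayed below the 40th percentile of its array in all 8 of these samples, as did the cortical glutamate transporter gene Slc17a7. Tbr1, a cortical transcription factor, read 544 to 765 in cortex and 297 to 475 in raphe.

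In a check of the samples, 5 stood apart. A score was set to 0 for the mean of naive cortex and 1 for the mean of naive raphe. It used the 200 probe sets with the smallest p between the naive regions, members left out, so naive samples lie near 0 or 1 by construction. On this score the other samples lay between 0.929 and 1.01 in raphe and between -0.030 and 0.039 in cortex. Replicate 1 of raphe sham at 3 months scored 0.0453. It was measured on types B and C alone and so touched Gabbr1, Grik1 and further probe sets of members on those types, among them 1 of Gria3. Replicate 1 of cortex sham at 3 months scored 0.642. The 5th percentile of signal, averaged over a sample's arrays, was 2.33 times the median of its region in replicate 2 of injured cortex at 7 d. It was 4.05 times that median in replicate 2 of sham cortex at 14 d. The highest actin 3' over 5' ratio among a sample's arrays was 93.3 in replicate 1 of injured raphe at 4 h. Counts of members called are given with all samples and, where they differ, without these 5. Groups shared a spread, so leaving them out could change calls in comparisons that held none of them.

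Of the 43 genes, 37 passed the filter in at least 1 region, which asked for a value above the 40th percentile of the array on at least 4 arrays of a region. The remaining 6 were not tested. Among them the kainate receptor gene Grik1 read 24.3 to 459 in raphe and 23.97 to 303 in cortex. The GABA-A receptor gene Gabrg3 read 10.5 to 225 and 19.4 to 299, and Gabrp read 14.7 to 137 and 6.88 to 175. The retinal-type subunit genes Gabrr2 and Gabrr3 had medians of 17.1 and 9.73 in raphe and of 19.2 and 7.67 in cortex, and the glycine receptor gene Glra3 had medians of 10.9 and 23.3. These 3 and Gabrp lay below the 40th percentile on every array.

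In the animals without an operation, 12 of the 37 receptor genes differed between the regions at an adjusted p under 0.05 (limma's moderated test, Benjamini-Hochberg over all probe sets). Glra1 was higher in raphe and 11 were lower: Gabrd, Grm2, Gria2, Gria1, Gria3, Grm5, Grik5, Gabbr2, Gabrb2, Grm3 and Grm7. Glra1 passed the filter on low values in raphe alone and Grm5 in cortex alone, the region where each is high, so the filter favoured a difference in these genes. The same holds for Gabrb1, which passed in cortex alone, and for Grm8, which passed in raphe alone. Over all probe sets 14.2 percent were called in this comparison, 2770 of 19453, with 6.65 percent higher and 7.59 percent lower in raphe. The median difference, raphe minus cortex, was -0.49 over the 37 genes and -0.004 over all probe sets, on the log2(value + 32) scale used for all differences. Levels are deposited signal values on a linear scale, and levels of different genes are not compared, since probe sets differ in brightness.

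**Figure D1:**
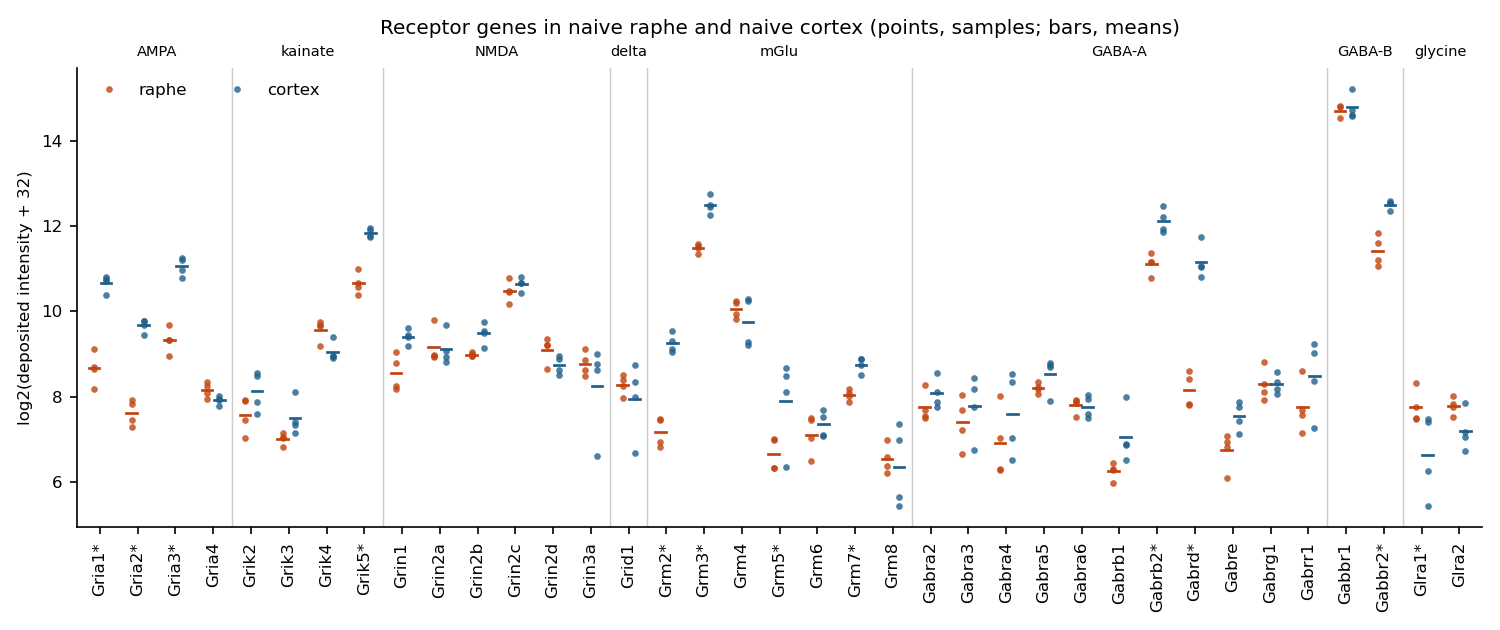
log2 of deposited intensity plus 32 (vertical axis) in each naive sample (points) with group means (bars) for the 37 tested genes by receptor class, with raphe in orange and cortex in blue. An asterisk marks the 12 genes with an adjusted p under 0.05, of which only Glra1 lies higher in raphe.

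The AMPA receptor carries most fast excitatory transmission, and its subunits assemble in fours from the products of Gria1 to Gria4. Gria1 read 259, 370.4, 380.2 and 524 in naive raphe and 1296, 1652, 1696 and 1764 in naive cortex. Gria2, whose edited product makes the channel nearly impermeable to calcium, read 125, 143, 196 and 209 in raphe and 665, 783, 841 and 847 in cortex. Gria3 read 459.6, 606, 613 and 789.6 in raphe and 1730.4, 1955, 2337 and 2414 in cortex. In all 3 genes every raphe sample lay below every cortex sample. The differences were -2.004 ± 0.41 for Gria1 (SE, n = 4 and 4, limma adjusted p = 0.0002), -2.04 ± 0.30 for Gria2 (limma adjusted p = 3.2e-07) and -1.73 ± 0.40 for Gria3 (limma adjusted p = 0.0012), or 4.01, 4.13 and 3.32-fold lower in raphe. Each has 3 probe sets, and all 9 were called lower, in naive, sham and injured samples alike. Gria4 did not follow them: it read 216 to 290.0 in raphe and 186 to 227 in cortex, a difference of 0.24 ± 0.33 (limma adjusted p = 0.72), with values that overlapped.

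The kainate receptor genes divided. Grik5, which encodes a high-affinity subunit that works only in partnership with other kainate subunits, read 1298, 1496, 1589 and 2018 in naive raphe against 3362, 3431, 3828 and 3925 in naive cortex, without overlap, a difference of -1.18 ± 0.18 (limma adjusted p = 9.3e-07). Grik4, the other gene of the high-affinity pair, read 547, 772, 791 and 822 in raphe and 449, 464, 465 and 645 in cortex, 0.51 ± 0.25 higher and not past the threshold (limma adjusted p = 0.19). Grik2 was 0.55 lower (± 0.21, limma adjusted p = 0.070) and Grik3 0.49 lower (± 0.32, limma adjusted p = 0.36) in raphe, neither past the threshold.

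None of the 6 NMDA receptor genes was called in naive samples, with a median difference of -0.07. Grin1, whose product is required in every NMDA receptor, read 259, 271, 409 and 493 in raphe and 547, 638, 659 and 748 in cortex, and Grin2b, a forebrain-rich glutamate-binding subunit, read 460.2 to 495 and 535 to 831. Both sets of values were separate, but the differences of -0.84 ± 0.34 and -0.50 ± 0.20 had a limma adjusted p = 0.087. For Grin1 the probe sets disagreed. A second one, U11418_s_at, read 17.9 to 47.6 in naive raphe and 155 to 769 in naive cortex, a difference of -2.81 ± 0.34 (limma adjusted p = 3.8e-09), while L19708_at differed by 0.01 ± 0.39 and S39221_at by -0.47 ± 0.35. In the injured samples the difference of U11418_s_at was -3.49 ± 0.14 (limma adjusted p = 2.0e-30) and that of L19708_at 0.01 ± 0.16 (limma adjusted p = 0.97).

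Grin2c, an NMDA subunit gene of cerebellum and glia, stood level between the regions (1120 to 1712 in raphe and 1347 to 1767 in cortex, -0.17 ± 0.18). Grin2d differed by 0.36 ± 0.24, Grin2a by 0.04 ± 0.34, Grin3a by 0.52 ± 0.51 and the delta receptor gene Grid1 by 0.33 ± 0.43. These 5 genes had a limma adjusted p between 0.36 and 0.97. The other Grin2a probe set gave -0.68, not past the threshold. Grin3a and Grid1 each had 1 low cortex sample, at 64.9 and 70.9.

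Of the 7 metabotropic glutamate receptor genes, 4 were lower in naive raphe. Grm2, whose product is a presynaptic brake on glutamate release, read 80.6, 91.0, 142 and 145 in raphe and 499, 526, 600.1 and 712 in cortex, without overlap, -2.09 ± 0.21 (limma adjusted p = 2.0e-11). Grm3, of the same receptor group and also found in astrocytes, read 2553 to 3007 and 4849 to 6793, again without overlap, -1.0007 ± 0.27 (limma adjusted p = 0.0069). Grm5, a receptor coupled to calcium release, read 47.6, 48.3, 94.6 and 97.0 in raphe and 49.4, 243, 324 and 375 in cortex, -1.24 ± 0.41 (limma adjusted p = 0.029), and here 1 cortex sample lay among the raphe values. The Grm5 call was lost in 5 of 8 cases when 1 sample was left out (replicates 1, 2 and 4 of naive cortex, 2 and 4 of naive raphe; -1.76 to -0.98, adjusted p up to 0.15). Grm7, a presynaptic receptor, read 200.5 to 257 and 332 to 436, -0.72 ± 0.22 (limma adjusted p = 0.019), a call lost in 3 of 8 such cases (replicates 2 and 4 of naive cortex, 2 of naive raphe; adjusted p up to 0.064). Grm4 (0.29 ± 0.25), Grm6 (-0.24 ± 0.28) and Grm8 (0.19 ± 0.31) overlapped and did not pass.

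Among the 11 tested GABA-A receptor genes, 2 passed in naive samples. Gabrd, which encodes the subunit of extrasynaptic receptors that carry tonic inhibition, had the largest difference of all members tested: 192, 196, 311 and 353 in raphe against 1744, 2067, 2116 and 3404 in cortex, without overlap. The difference was -2.999 ± 0.33, or 7.99-fold (limma adjusted p = 2.5e-10), and the second Gabrd probe set gave -1.89 ± 0.22. Gabrb2, part of the most common synaptic receptor, read 1711, 2250.5, 2252 and 2618 in raphe and 3656, 3841, 4739 and 5666 in cortex, -1.003 ± 0.20 (limma adjusted p = 1.1e-04). Its second probe set gave -0.42 ± 0.37 (limma adjusted p = 0.54) and did not pass in sham (-0.53 ± 0.22) or injured samples (-0.28 ± 0.15) either. Gabrg1 (-0.01 ± 0.29) and Gabra6 (0.03 ± 0.31), the latter a cerebellar granule cell gene, were level within these errors. Gabre (-0.81 ± 0.32), Gabrb1 (-0.81 ± 0.44), Gabrr1 (-0.72 ± 0.34), Gabra4 (-0.69 ± 0.48), Gabra3 (-0.38 ± 0.34), Gabra5 (-0.33 ± 0.24) and Gabra2 (-0.32 ± 0.29) had negative differences that did not pass.

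The GABA-B receptor works as a pair of the products of Gabbr1, which binds GABA, and Gabbr2, which couples to the G protein. Gabbr2 read 2117, 2319.6, 3072 and 3592 in naive raphe and 5164, 5893, 5904 and 6086 in naive cortex, -1.07 ± 0.23 (limma adjusted p = 3.4e-04), and all 3 of its probe sets were called lower. Gabbr1 read 23492, 28135 and 28670.0 in raphe and 24398, 24848, 26858 and 38003 in cortex, -0.07 ± 0.25 (limma adjusted p = 0.91). The 6 tested probe sets of Gabbr1 gave -0.21 to 0.16, and none passed. The difference of Gabbr2 from Gabbr1 was not tested.

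Glycine receptor genes lay on the other side. Glra1, the adult ligand-binding subunit of brainstem and cord, read 147, 148, 186 and 288 in naive raphe and 11.1, 44.6, 136 and 145 in naive cortex, without overlap, though the highest cortex sample almost met the lowest raphe samples. The difference was 1.13 ± 0.37 (limma adjusted p = 0.027), and it did not pass with a larger constant added before the log (0.63, limma adjusted p = 0.055). Leaving out 1 sample ended the call in 4 of 8 cases (replicates 1 and 4 of naive cortex, 1 and 3 of naive raphe; adjusted p up to 0.24), and without replicate 1 of naive cortex the difference was 0.72. A second Glra1 probe set, X55246_at, gave 0.66 ± 0.51 in naive, -0.22 ± 0.31 in sham and 0.04 ± 0.21 in injured samples, none past the threshold, so the higher raphe signal rests on 1 of the 2 tested probe sets. A further one, D00833_g_at (mean signal 36.1), did not pass the filter. Glra2, the subunit typical of immature neurons, read 151 to 227 and 73.8 to 198, 0.58 ± 0.30 (limma adjusted p = 0.22).

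The sham and the injured samples gave the region comparison from group means that the naive comparison had not used. All groups of both regions shared the filter and the spread of a single fit per array type, so these comparisons are not independent. In sham samples 23 of the 37 genes passed, 4 higher and 19 lower in raphe, where 32.7 percent of all probe sets passed (15.7 percent higher, 16.9 percent lower). In injured samples 27 passed, 5 higher and 22 lower, against 48.2 percent of all probe sets (24.3 percent higher, 24 percent lower). All 12 genes called in naive samples were also called in both other sets with the same sign, and 11 further genes were called in sham and in injured samples. The sign was the same in all 3 sets for 31 of the 37 genes. Without the samples that stood apart, 15 (20.5 percent of all probe sets), 23 (39 percent) and 28 (53.5 percent) genes passed, and Gabre, Grik2 and Grin2b were those added in naive samples, all lower in raphe. No naive sample was among those left out, so the naive differences were unchanged and only the shared spread, the filter and the adjustment differed.

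**Figure D2:**
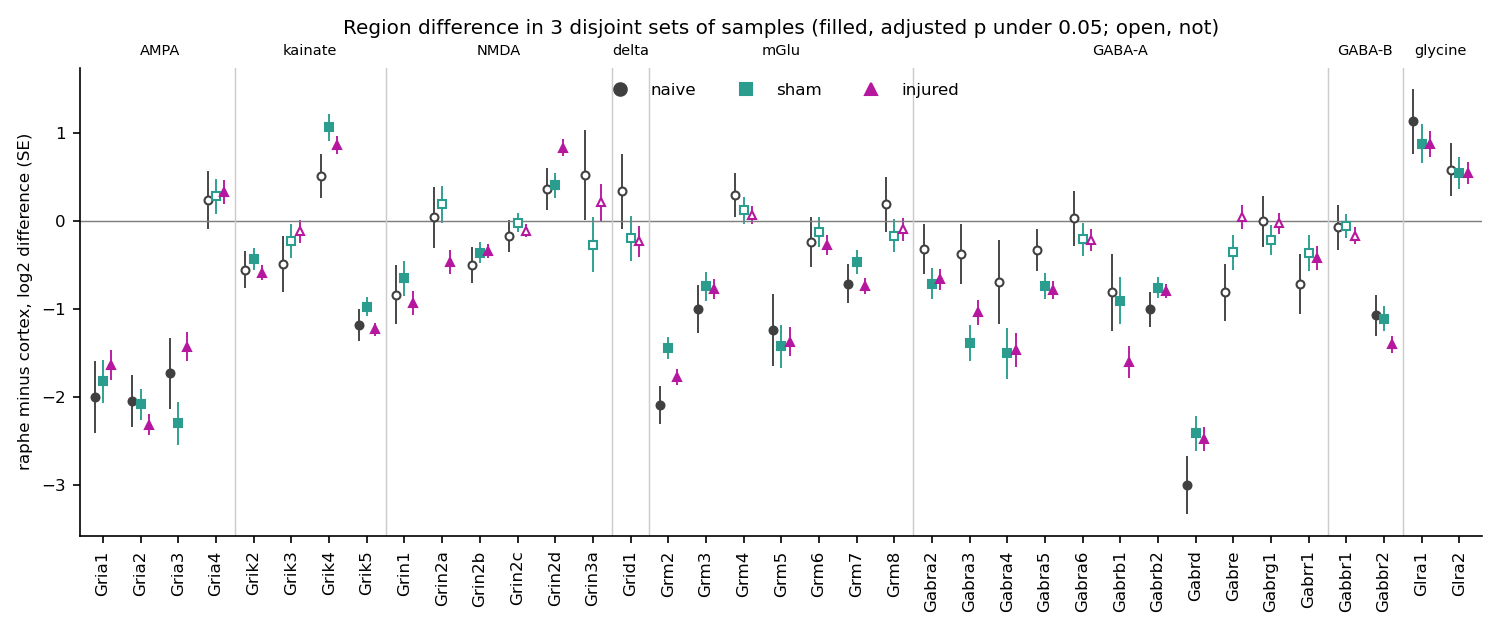
Raphe minus cortex difference on the log2 scale (vertical axis, bars SE) for the 37 tested genes in naive, sham and injured samples, filled where the adjusted p was under 0.05. The markers of Gabrd lie at or below -2.41, those of Glra1 between 0.87 and 1.13, and those of Gabbr1 between -0.17 and -0.06.

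The genes called in sham and injured samples but not in naive samples were Gabra2, Gabra3, Gabra4, Gabra5, Gabrb1, Grik2, Grin1 and Grin2b, lower in raphe, and Grik4, Grin2d and Glra2, higher. Gabra3, a subunit gene of brainstem monoamine neurons and of deep cortex, read 47.3 to 248 in 11 sham raphe samples (median 85.0) and 193 to 474 in 12 sham cortex samples (median 281), -1.39 ± 0.20 (limma adjusted p = 1.0e-07). Gabra4, a partner of the Gabrd product in forebrain, read 33.4 to 134 (median 69.4) and 85.4 to 445 (median 302), -1.50 ± 0.29 (limma adjusted p = 2.4e-05). Grik4 read 649 to 1018 (median 872) in sham raphe and 262 to 588 (median 413) in sham cortex, without overlap, 1.06 ± 0.15 (limma adjusted p = 4.2e-08). Grik4 and Grik5 thus had opposite signs in each of the 3 sets.

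Grin2d, an NMDA subunit gene of brainstem and of interneurons, was 0.83 ± 0.10 higher in 24 injured raphe than in 24 injured cortex samples (404 to 911, median 666, against 204 to 539.9, median 382; limma adjusted p = 6.3e-11). Glra2 was 0.54 ± 0.18 higher in sham (limma adjusted p = 0.016) and 0.55 ± 0.12 higher in injured raphe (limma adjusted p = 1.5e-04). Called in injured samples alone were Grin2a, Gabrr1 and Grm6, lower in raphe, and Gria4, higher, all by less than 0.5. By class, the tested GABA-A genes gave 0 higher and 8 lower of 11 in injured samples, and the metabotropic genes 0 and 5 of 7. The AMPA genes gave 1 and 3 of 4, the NMDA genes 1 and 3 of 6, and both tested glycine receptor genes were higher. Over all probe sets 24.3 percent were higher and 24 percent lower. Of the genes counted here, Glra1 and Grm8 passed the filter in raphe alone, and Gabrb1 and Grm5 in cortex alone. The second Glra1 probe set did not pass in injured samples.

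Marker genes of the regions and their cells differed alongside. In naive samples 10 of 12 tested forebrain genes were lower and 10 of 12 brainstem genes higher in raphe, and 7 of 9 oligodendrocyte genes were higher. The mean level of the forebrain list ran from 7.77 to 8.05 in 3 naive raphe samples and from 10.27 to 10.46 in 4 cortex samples, and that of the oligodendrocyte list from 13.09 to 13.23 and from 11.76 to 12.27 (log2). Of 14 general neuronal genes 3 were higher and 4 lower, and the mean level of that list overlapped, with 12.95 to 13.10 in raphe and 12.91 to 13.08 in cortex. The part of cell composition in the receptor differences was not tested. In tissue RNA, fewer cells of a type and less RNA per cell cannot be told apart.

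Genes that act with the receptors were taken from 3 lists. Of 29 tested genes for scaffolds and auxiliary subunits of excitatory synapses, 1 was higher and 15 were lower in naive raphe (median -0.65). Homer1, which links metabotropic receptors to calcium stores, differed by -3.41 ± 0.29, Nptxr, a pentraxin receptor that gathers AMPA receptors, by -3.44 ± 0.32, and Cnih2, an AMPA receptor auxiliary subunit, by -1.59 ± 0.17, whereas Cbln1, a ligand of delta receptors, was 1.83 ± 0.23 higher. Of 10 inhibitory scaffold and trafficking genes, 3 were lower and 0 higher (median -0.09), led by the kinase gene Prkcb (-1.92 ± 0.19). When the samples that stood apart were left out, 4 excitatory genes were higher and 16 lower, and 2 inhibitory genes were higher and 3 lower. Of 22 genes for making, loading and taking up the transmitters, 7 were higher and 4 lower (median 0.14). The vesicular loaders Slc17a6 for glutamate (3.86 ± 0.43) and Slc32a1 for GABA and glycine (1.19 ± 0.16) and the glycine transporter gene Slc6a9 (1.94 ± 0.26) were higher, and Gldc, which breaks down glycine, was lower (-2.20 ± 0.47).

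The promoters of 31 members were in the RefSeq table (build GRCr8). The 6 shown are from genes that were lower in raphe (Gabrd, Gabbr2, Gabrb1, Gabrb2) and higher in raphe (Glra2, Grik4), as the 150 bases before the annotated start, 5′ to 3′ on the gene's strand. Capitals mark matches on either strand to the GC box GGGCGG, the TATA box TATAAA and the palindromic core of the NRF1 motif (in Gabrb1 and Gabrb2), and neighbouring GC boxes in Gabrd share bases.
Gabrd (chr5:171252710-171252859, minus strand): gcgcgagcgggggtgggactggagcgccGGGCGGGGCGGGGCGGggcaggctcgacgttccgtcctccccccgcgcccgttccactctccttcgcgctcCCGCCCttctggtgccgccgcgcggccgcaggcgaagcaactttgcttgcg
Gabbr2 (chr5:66083696-66083845, minus strand): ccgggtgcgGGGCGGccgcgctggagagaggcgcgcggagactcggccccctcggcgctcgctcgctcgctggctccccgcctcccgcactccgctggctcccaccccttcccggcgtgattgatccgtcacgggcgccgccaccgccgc
Gabrb1 (chr14:36902894-36903043, minus strand): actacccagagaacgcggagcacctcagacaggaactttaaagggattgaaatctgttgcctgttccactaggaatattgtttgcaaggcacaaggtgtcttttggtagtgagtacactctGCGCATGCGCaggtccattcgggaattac
Gabrb2 (chr10:27439643-27439792, plus strand): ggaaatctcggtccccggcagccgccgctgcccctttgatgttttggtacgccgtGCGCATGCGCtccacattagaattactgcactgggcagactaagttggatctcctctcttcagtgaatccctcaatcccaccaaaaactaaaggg
Glra2 (chrX:32652037-32652186, plus strand): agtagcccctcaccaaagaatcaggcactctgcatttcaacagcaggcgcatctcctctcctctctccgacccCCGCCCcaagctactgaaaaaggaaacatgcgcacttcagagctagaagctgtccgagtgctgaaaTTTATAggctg
Grik4 (chr8:52102064-52102213, minus strand): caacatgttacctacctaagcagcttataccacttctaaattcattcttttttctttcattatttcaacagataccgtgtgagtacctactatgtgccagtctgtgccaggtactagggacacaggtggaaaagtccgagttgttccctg

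In the 250 bases before the start, the GC box was found in 12 of the 31 member promoters and in 30.5 percent of all 33469 promoters, the TATA box in 3 of 31 and in 12.9 percent, and the NRF1 core in 2 of 31 and in 0.762 percent. The 2 with the NRF1 core were Gabrb1 and Gabrb2, the GABA-A beta subunit genes measured here. Gabrb1 passed the filter in cortex alone and was not called in naive samples, and the second Gabrb2 probe set was not called in any set. A link of the motif to the region difference was not tested. A match is a description of the letters and shows no binding. Several GABA-A genes are neighbours. Gabrb1 and Gabra4, both lower in sham and injured raphe, start 41.9 kb apart on chromosome 14 and point away from each other. Gabrb2 and Gabra6 start 112.6 kb apart on chromosome 10, and of this pair only Gabrb2 was called.

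Few of these genes differed between injured and sham samples. In the raphe, injured against sham over the 6 times, 1 of 35 tested receptor genes passed, Gria3, which was higher in injured samples. Over all probe sets 0.946 percent passed (177 of 18716), and 0.641 percent were higher. In the cortex 0 of 35 passed, where 0.133 percent of all probe sets did (25 of 18769). An unadjusted p under 0.05 was reached there by 6 of the 35 members and by 11.4 percent of all probe sets. The difference between the regions in this contrast passed for 0 of 37 members (0.0206 percent of all probe sets), with an unadjusted p under 0.05 for 5 and for 8.49 percent of all probe sets. The median difference was -0.06 over the 35 genes in raphe and 0.02 in cortex. No member passed for a change of the injured minus sham difference over time (limma F test), and 0 percent of all probe sets in raphe and 0.97 percent in cortex did. In this F test an unadjusted p under 0.05 was reached by 6 members and 10.5 percent of all probe sets in raphe, and by 8 members and 17.8 percent in cortex. Without the samples that stood apart it was reached by 3 members and 9.93 percent of all probe sets in cortex.

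In sham raphe Gria3 read 236 and 239.9 at 4 h, 261 and 273 at 24 h, 263 and 378 at 7 d, 15.7 and 76.6 at 14 d, 44.1 and 188 at 28 d, and 225 in the single sample at 3 months. In injured raphe it read 382, 414, 443 and 1048 at 4 h, 93.3, 95.9, 463 and 629 at 24 h, and 369.6, 445, 532 and 538 at 7 d. Later it read 242, 351, 365 and 453 at 14 d, 166, 284, 288 and 411 at 28 d, and 248, 293, 355 and 355 at 3 months. The injured samples lay above every sham sample of the same time at 4 h, 14 d and 3 months, and overlapped at 24 h, 7 d and 28 d. In all, 22 of 24 injured samples lay above the sham mean.

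The difference over the 6 times was 0.91 ± 0.22 (limma adjusted p = 0.035) and 0.86 ± 0.21 without the samples that stood apart (limma adjusted p = 0.018). At 14 d, where 0.0374 percent of all probe sets passed, it was 2.39 ± 0.50 (limma adjusted p = 0.080), and this passed without those samples (limma adjusted p = 0.034), where 0.227 percent of all probe sets passed. The difference at 14 d was the largest of the 6 that enter the mean. It rests on 2 sham samples, whose 5th percentiles of signal, averaged over the array types, were 12.1 and 13.4. The sham value of 15.7, read on type A, lay near these averages, and the 5th percentile of type A alone is not given. All injured raphe samples but 2 nevertheless lay below the naive mean, and sham raphe, at 15.7 to 378, lay wholly below naive raphe (459.6 to 789.6): sham minus naive was -1.66 ± 0.34 (limma adjusted p = 0.0098). Gria3 was the only member called there, among 35 tested and with 1.35 percent of all probe sets passing (0.513 percent lower). After those 5 samples were left out, 4 members passed against naive raphe (6.12 percent of all probe sets): Gria3 and Grin3a (-1.21, limma adjusted p = 0.010) were lower in sham, and Grik3 (0.66, limma adjusted p = 0.030) and Gabrr1 (0.94, limma adjusted p = 0.034) were higher. The same sham samples enter the comparisons with injured and with naive samples.

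**Figure D3:**
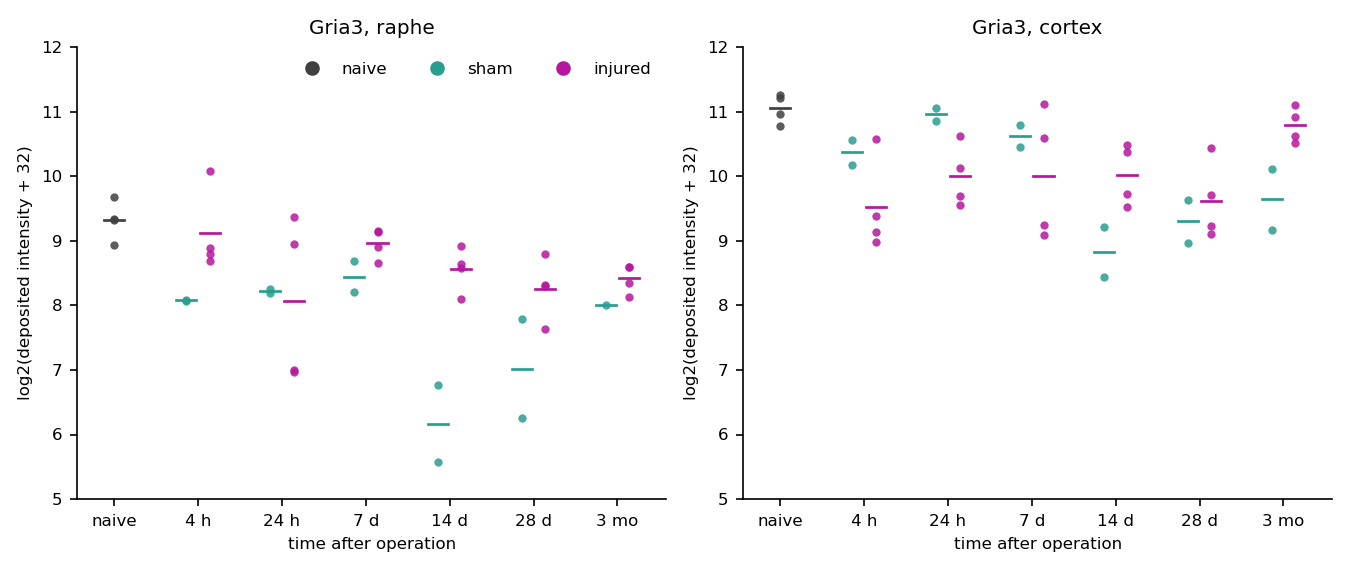
log2 of deposited intensity plus 32 for the first Gria3 probe set (vertical axis) in each sample of raphe (left) and cortex (right) by time (points, with group means as bars). In raphe both sham samples at 14 d, 15.7 and 76.6 before the log, lie below all other groups' means, and the injured sample at 1048 is the highest after an operation.

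These values are from X54656_at, and neither of the other Gria3 probe sets passed for the injury difference. M36420_s_at read 24.6 to 402 in sham raphe and 16.9 to 372 in injured raphe (0.14 ± 0.27, limma adjusted p = 0.87), and rc_AI102061_at read 192 to 737 and 148 to 506 (0.14 ± 0.13, limma adjusted p = 0.68). The 737 is replicate 1 of sham at 3 months, which scored like cortex, and the 16.9 is replicate 1 of injured raphe at 4 h. Without the samples that stood apart the differences were 0.24 ± 0.22 for M36420_s_at (limma adjusted p = 0.57) and 0.29 ± 0.10 for rc_AI102061_at (limma adjusted p = 0.11), nearer to that of X54656_at. Against naive raphe, sham samples were lower by M36420_s_at (-0.70 ± 0.42) and higher by rc_AI102061_at (0.46 ± 0.24), neither past the threshold. The mean over the 3 probe sets gave 0.39 for injured minus sham raphe. By contrast, all 3 gave the lower raphe signal against cortex in naive, sham and injured samples. Leaving out 1 sample at a time kept the sign in 35 of 35 cases and ended the call of the injury difference in 9 (replicate 2 or 3 of injured raphe at 28 d, either sham replicate at 4 h or 24 h, replicate 1 of sham at 7 d, and replicate 2 of sham at 14 d or 28 d; adjusted p up to 0.098), and the replicate number as a block ended it too (0.83, limma adjusted p = 0.14).

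**Figure D4:**
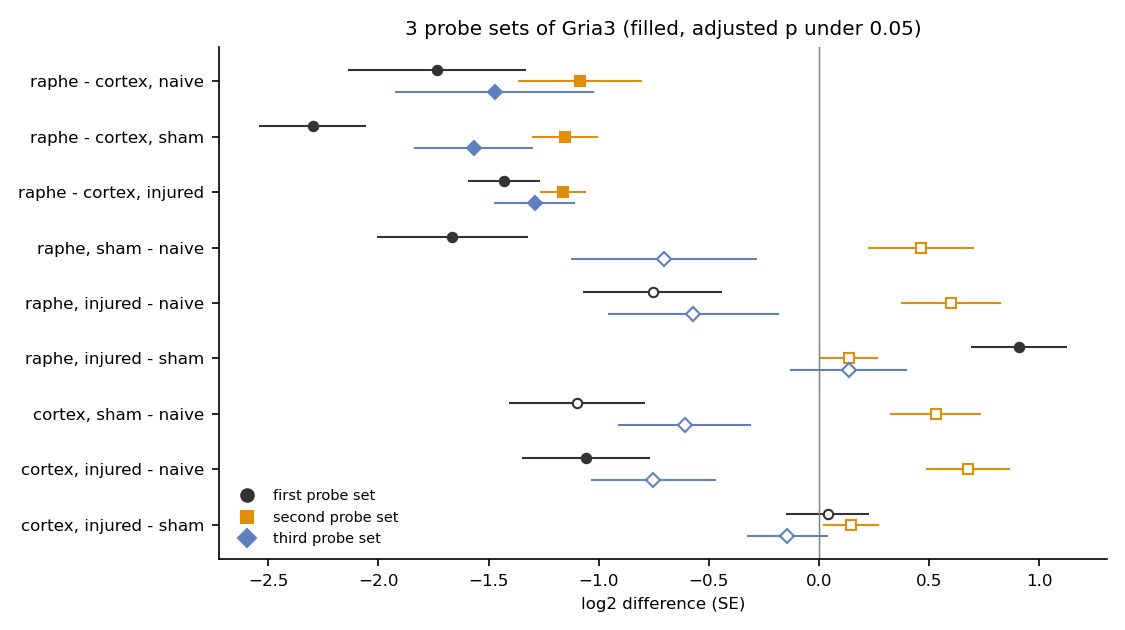
Log2 differences with SE (horizontal axis) for the 3 probe sets of Gria3 in 9 comparisons, filled where the adjusted p was under 0.05. The 3 probe sets share the sign of the region differences, while for injured minus sham in raphe the first gives 0.91 and both others give 0.14 with all samples (0.24 and 0.29 without those that stood apart).

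Of the other members in raphe, the smallest p for injured against sham over the 6 times belonged to Grin2a, Grik3, Grin3a and Gria4, none past the threshold with all samples. Grin2a, the main NMDA subunit of mature neurons, read 494 to 874 in sham (median 602) and 209 to 902 in injured raphe (median 397), -0.57 ± 0.17 (limma adjusted p = 0.091), with 21 of 24 injured samples below the sham mean. Grik3 read 96.1 to 347 (median 150) and 74.4 to 338 (median 121), -0.39 ± 0.12 (limma adjusted p = 0.11). Grin3a, an NMDA subunit that lowers calcium entry, gave 0.57 ± 0.20 (limma adjusted p = 0.16), and Gria4 gave 0.32 ± 0.13 (limma adjusted p = 0.22).

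With those 5 samples left out, 4 members passed in raphe, where 4.73 percent of all probe sets did: Gria3 higher, and Grin2a (-0.63 ± 0.15, limma adjusted p = 0.016), Grik3 (-0.41 ± 0.12, limma adjusted p = 0.038) and Grik4 lower. Grik4 differed by -0.29 ± 0.08 (limma adjusted p = 0.037). Leaving out replicate 1 of injured raphe at 4 h alone also gave 4 calls, 3 of them Gria3, Grin2a and Grik3. None of 13 neuronal, 10 astrocyte, 9 oligodendrocyte or 10 microglial marker genes passed in this contrast with all samples. Without those that stood apart, 1 oligodendrocyte, 2 of 8 motor neuron and 2 of 6 striatal genes were lower and 1 of 10 cerebellar genes was higher, and their part in these differences was not tested. With all samples, of 27 excitatory scaffold and auxiliary genes only Dlgap4, a postsynaptic scaffold, passed (0.61 ± 0.14, limma adjusted p = 0.034), and of 10 inhibitory scaffold and 22 transmitter genes none did. Without those that stood apart, 1 excitatory gene was higher and 1 lower, 2 inhibitory genes were higher, and 1 transmitter gene was higher and 1 lower.

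In the cortex the smallest p for injured against sham belonged to Gabrb1, Grik5, Grin2d, Grik3 and Grm2. Gabrb1, a GABA-A beta subunit gene, read 63.4 to 529.8 in 12 sham samples (median 141) and 70.6 to 1252 in 24 injured samples (median 327), 0.80 ± 0.26 (limma adjusted p = 0.22), with 21 of 24 injured samples above the sham mean and wide overlap. Grik5 gave 0.27 ± 0.09 (limma adjusted p = 0.23), Grin2d -0.35 ± 0.13 (limma adjusted p = 0.29), Grik3 -0.50 ± 0.19 (limma adjusted p = 0.29) and Grm2 0.24 ± 0.09 (limma adjusted p = 0.30). None of the 3 lists of genes that act with the receptors had a call in this contrast.

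Injured cortex differed from naive cortex in 2 of 35 members, where 2 percent of all probe sets passed (0.948 percent lower), and both were lower in injured cortex. Grm3 read 4849 to 6793 in 4 naive samples and 1665 to 5585 in 24 injured samples (median 3324), with every injured sample below the naive mean but some overlap, -0.81 ± 0.18 (limma adjusted p = 0.016). In sham cortex it read 1789.9 to 4622, wholly below naive, -0.69 ± 0.19 (limma adjusted p = 0.084), and injured did not separate from sham. Gria3 read 1730.4 to 2414 in naive, 314 to 2104 in sham (median 1102) and 472 to 2196 in injured cortex (median 951). Sham minus naive was -1.10, not past the threshold, and injured did not separate from sham. Injured minus naive was -1.06 ± 0.29 (limma adjusted p = 0.048), and this call was lost in 19 of 28 cases when 1 sample was left out. Of its other probe sets M36420_s_at gave -0.75 ± 0.28 and rc_AI102061_at gave 0.68 ± 0.19, of the opposite sign, neither past the threshold (limma adjusted p = 0.15 and 0.055). With those 5 samples left out, rc_AI102061_at passed as higher (0.67 ± 0.18, limma adjusted p = 0.033), against the lower X54656_at. Gria2 also had probe sets that disagreed here: M36419_s_at, which stood for the gene, gave 0.13 ± 0.22 (limma adjusted p = 0.82), M38061_at was higher (0.87 ± 0.23, limma adjusted p = 0.041) and rc_AA957445_at lower (-1.05 ± 0.28, limma adjusted p = 0.044) in injured cortex.

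Without the samples that stood apart, 4 members passed for injured against naive cortex (4.07 percent of all probe sets): Grm3, Gria3 and Gria1 (-0.78 ± 0.21, limma adjusted p = 0.031) lower and Gabra5, a GABA-A subunit gene of the hippocampus and deep cortex, higher (0.55 ± 0.16, limma adjusted p = 0.048). In sham against naive cortex 0 of 35 members passed (0.49 percent of all probe sets), with an unadjusted p under 0.05 for 11 members and 13.8 percent of all probe sets. In raphe, injured against naive, 0 of 35 passed (3.05 percent of all probe sets), with an unadjusted p under 0.05 for 6 members and 16.9 percent of all probe sets. Without the samples that stood apart 2 passed, Gabra6 lower and Gabrb2 higher (11.2 percent of all probe sets).

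At no single time did a receptor gene pass in either region with all samples (limma, 0 of 35 at each time). Of all probe sets in raphe, 0.15 percent passed at 4 h, 0.00534 percent at 24 h, 0.801 percent at 7 d, 0 percent at 28 d and 0.614 percent at 3 months. In cortex 0.016 percent passed at 4 h, 0.0426 percent at 24 h, 0.368 percent at 7 d, 1.81 percent at 14 d, 0 percent at 28 d and 2.47 percent at 3 months. The cortex sham groups at 14 d and 3 months each held a sample that stood apart, and without those samples 0.151 percent and 0.184 percent passed. An unadjusted p under 0.05 was reached by at most 10 members in raphe, at 7 d (12.8 percent of all probe sets), and at most 11 in cortex, at 14 d (18.9 percent), where it was 4 members and 4.62 percent without the samples that stood apart. When the samples that stood apart were left out, Glra2 passed in raphe at 7 d (0.88 higher after injury, limma adjusted p = 0.046), where 4.71 percent of all probe sets did. The differences of single genes at single times ran from -1.44 for Grik3 in cortex at 3 months to 2.39 for Gria3 in raphe at 14 d. At 3 months 30 of 35 members were higher in injured than in sham cortex, with a median of 0.40 against 0.07 over all probe sets, but the group of 2 sham samples held the one with the score of 0.642. Without it and the others that stood apart 22 of 35 were higher, with a median of 0.09 against 0.02 over all probe sets.

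**Figure D5:**
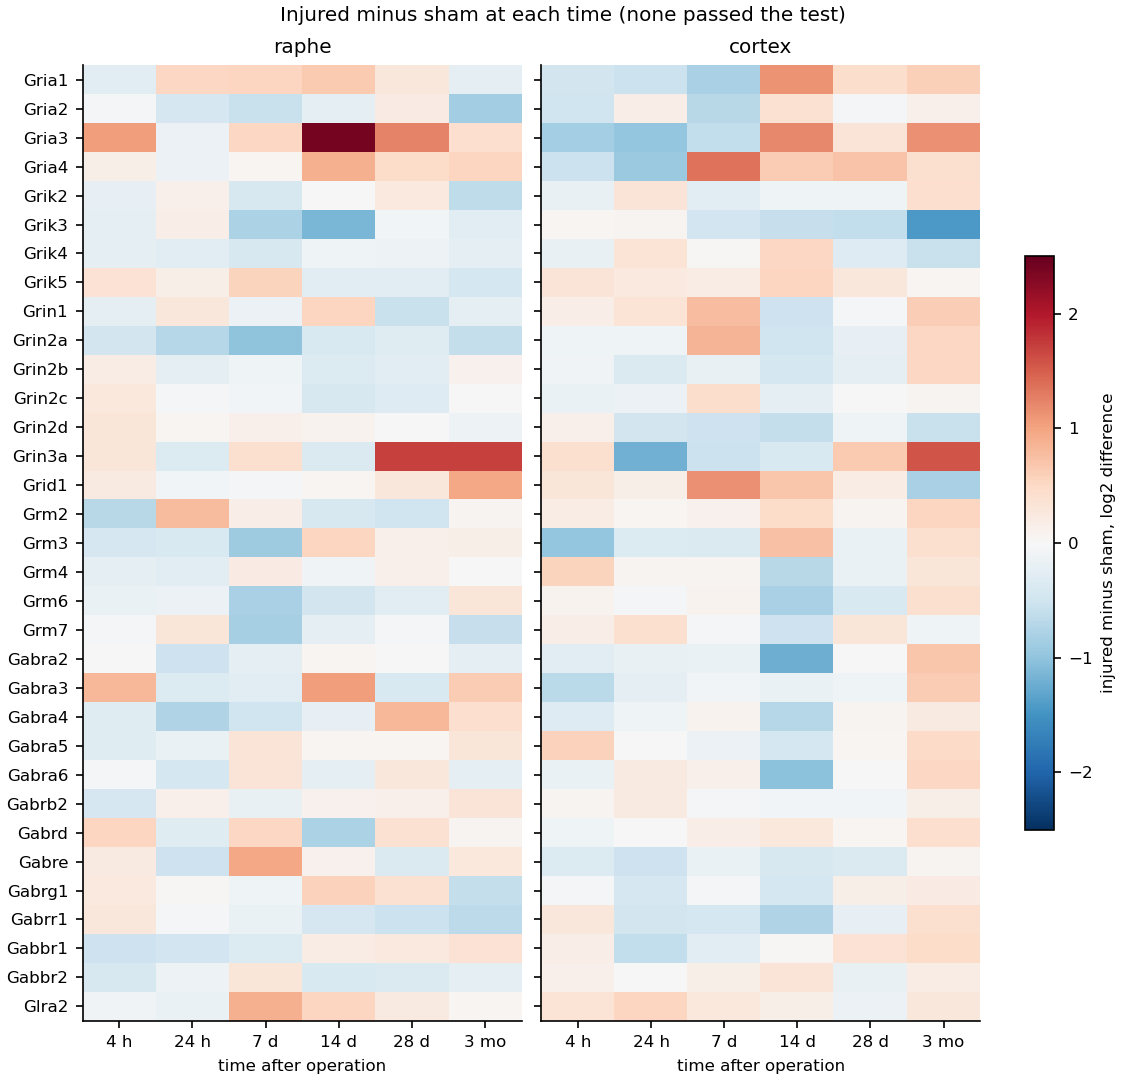
Injured minus sham difference on the log2 scale (colour, red higher, blue lower after injury) at each time (columns) for the 33 genes tested in both regions (rows), with 4 injured samples and 2 sham samples per time (1 for raphe at 3 months on type A). The strongest red is Gria3 in raphe at 14 d, 2.39, and the strongest blue is Grik3 in cortex at 3 months, -1.44, and no difference passed the test.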

How the data were processed

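Per the labels' titles, samples were grouped by region, treatment and time, and the title was followed where a description gave another time. The deposited values are linear intensity values, 1 for each probe set, already scaled array by array; which software made them is not given. This scaling was kept, 32 was added and log2 taken. Symbols came from the platform annotation: 18178 probe sets had 1 symbol, 391 several and 7633 none. Group means were fitted per array type by limma 3.58.1 (R 4.3.3, with statmod 1.5.0), two-sided, with all groups of a region, or of both regions, sharing a spread, and with Benjamini-Hochberg adjustment over the 3 types and a threshold of 0.05. Tests were checked on simulated data. Named are all members past the threshold, the sample values of the 8 largest naive differences in each direction among them, and the 5 smallest p over the 6 times. The members and lists were chosen with earlier results of these data known. The number of arrays limits the precision. Alternatives were quantile normalization, no filter, a larger added constant, a block for the replicate number, leaving out each sample or those that stand apart, cortex without type A arrays of conflicting time labels, and averaging a gene's probe sets.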

Additional observations from a re-analysis of the deposited data

Results flagged for a closer look

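Among 42 groups of 4 samples checked for a sample far from the others, 1 was picked out, where chance picks about 1 in 20. Gria3 in injured raphe at 4 h read 1048 in replicate 1 and 382 to 443 in the other 3 samples, 1.28 above their mean on the log2 scale. This is the sample whose highest actin 3' over 5' ratio among its arrays was 93.3. That ratio need not belong to the type A array on which Gria3 was read, and the part of RNA quality in the value was not tested. Without this sample the Gria3 difference between injured and sham raphe over the 6 times was 0.86 (limma adjusted p = 0.015).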

How the results depend on the processing

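Of 122 counts of called members under other settings, leaving out single samples aside, 109 stayed within 1.5 times the value given. For the comparisons with 0 calls, which are most of them, this means only that the count stayed at 0. Of 666 values of named genes, 0 reversed. Injured against naive cortex gave 1 call without the filter and 4 without the samples that stand apart. Cortex at 14 d gave 1 under quantile normalization and 1 with a larger constant added, and cortex at 3 months 1 under quantile normalization. Without the samples that stand apart, raphe gave 2 calls for injured against naive, 1 at 14 d, 1 at 7 d, 4 over the 6 times and 4 for sham against naive, which was 2 under quantile normalization. Within a region, samples of different groups with the same replicate number did not deviate together on type A (median correlation of deviations 0.013 for the same number and -0.0044 for others). Pairing of raphe with cortex samples by this number was not examined. With the replicate number as a block, raphe over the 6 times gave 0 calls, the sham regions 14 and the naive regions 8, without Gria3, Grm3, Grm5 and Grm7. Leaving out 1 sample gave 10 to 12 calls between naive, 22 to 24 between sham and 25 to 28 between injured regions, and in raphe 0 to 4 over the 6 times (4 without replicate 1 of injured raphe at 4 h), 1 to 2 for sham against naive and 0 to 2 for injured against naive. In cortex it gave 0 to 3 for injured against naive, 0 to 2 for sham against naive, 0 to 1 over the 6 times, 0 to 2 at 7 d, 0 to 5 at 14 d and 0 to 6 for the change over time (5 and 6 without replicate 1 of sham at 14 d, which leaves at 14 d only the sham sample that stood apart, with 3499 and 2171 of all probe sets called), and 0 to 4 at 3 months (4 without replicate 2 of sham). The other comparisons gave 0 throughout. Over all probe sets, leaving out 1 sample gave 2254 to 2455 calls between naive and 9197 to 10241 between injured regions. For injured against naive raphe it gave 316 to 1893. The 4 calls in raphe over the 6 times without the samples that stand apart went with 4.73 percent of all probe sets, against 0.946 percent with all samples. Leaving out replicate 2 of raphe sham at 3 months could not be fitted on type A. The cause of these changes was not tested. With 1 or 2 sham samples per time, small differences at a single time cannot be resolved, and the added 32 draws weak signals towards 0.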
